A study of Mus musculus with 59 samples.

Results

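Infarcted tissue of the mouse left ventricle was compared with remote tissue of the same ventricles' upper part 8 weeks after a myocardial infarction, on 6 of the 59 oligonucleotide arrays of the study. The 6 arrays were taken by region and time from the labels: 3 hold infarct tissue, 3 hold remote tissue, and each infarct array shares its title number with 1 remote array. Infarct tissue came from between the left anterior descending artery and the apex, and remote tissue from above that artery. The 3 sham upper arrays of 8 weeks come from sham-operated mice and match the remote position, and 5 sham lower arrays, 1 at each of 5 earlier times, match the infarct position. There was no sham lower array at 8 weeks. The infarct and remote arrays of 1 week, 3 each, were used to ask how the regional difference at 8 weeks compares with an earlier one. The labels name no strain, sex, age or genotype, and leave the meaning of the title number open. Arrays that share a number were taken as the 2 regions of 1 mouse and are called pairs A, B and C, in the order of their numbers. P values and standard errors (SE) rest on a spread estimated over all 59 arrays, not on that of the 3 pairs alone, and hold for these samples only. Each array holds a whole piece of tissue, and the amount of scar in a piece was not recorded.

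After an infarct, dead heart muscle is replaced by a collagen scar. Fibroblasts and myofibroblasts, which carry smooth muscle contractile proteins, lay down fibrillar collagens, small proteoglycans that organise the fibrils, and matricellular proteins that signal to cells. Remote muscle carries extra load and can re-express fetal genes. Heart muscle cells draw most of their energy from mitochondrial oxidation of fatty acids, so genes of this pathway are far more abundant in muscle than in scar.

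The regional difference was graded over the 3 pairs, least in pair A and greatest in pair C. Of 6670 genes tested, 34 (0.51%) were at least 1 log2 unit (2-fold) higher in infarct than in remote tissue of pair A, 209 (3.13%) in pair B and 299 (4.48%) in pair C. Those at least 1 log2 unit lower numbered 33 (0.495%) in pair A, 76 (1.14%) in pair B and 178 (2.67%) in pair C. The Pearson correlation between the infarct and remote array, across genes, was 0.982 in pair A, 0.954 in pair B and 0.936 in pair C. The 3 infarct arrays also differed more among themselves, with a lowest correlation of 0.923, than the 3 remote arrays, with 0.975. Intensities ran from 0 to 35489.2 and array medians of the whole series from 157 to 214. The highest of these medians, 214, was that of the infarct array of pair C. The ratio of 3′ to 5′ probe sets for Gapdh, a sign of RNA quality, was 0.756 to 0.824 on infarct arrays and 0.815 to 0.849 on remote arrays. Its part in the results was not tested.

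The labelled tissue was checked against marker genes of its cell types, by their summed intensity. The 9 cardiomyocyte markers on the array summed to 163340, 141720 and 114137 in infarct tissue of pairs A, B and C, against 177417, 178899 and 161664 in remote tissue and 194359 to 198999 in sham tissue. Every infarct piece still held most of the cardiomyocyte signal. The 8 fibroblast markers summed to 29167, 41310 and 56641 in infarct tissue, against 30208, 27606 and 36648 in remote tissue. The infarct piece of pair A lay within the remote range for fibroblast markers, and the other 2 lay above it. Smooth muscle markers, 5 genes, summed to 3651, 6118 and 9565 in infarct tissue, against 2955, 2870 and 4205 in remote tissue. Macrophage markers, 7 genes, summed to 5263, 11040 and 11390 in infarct tissue, against 6970, 4992 and 6017 in remote tissue. In pair A the macrophage sum was lower in the infarct, and in the other pairs it was higher. No marker of any of these types was at 0. In whole pieces, fewer cells of a type and less RNA per cell cannot be told apart, and the part of the cell content in each result was not tested.

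**Figure D1:**
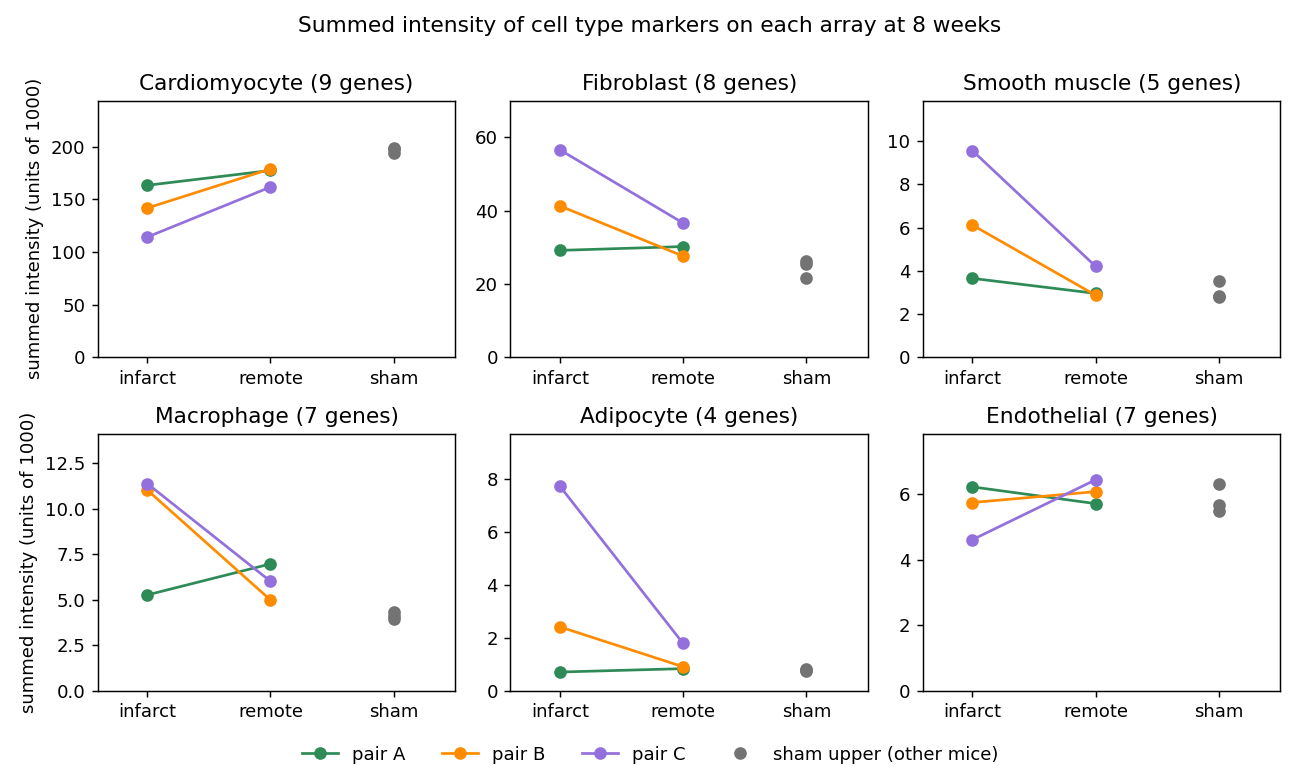
Summed intensity, in units of 1000 on a linear axis from 0, of the markers of 6 cell types on each array of 8 weeks. Points joined by a line are the infarct and remote arrays with 1 title number and grey points are the 3 sham upper arrays. Cardiomyocyte sums are lower in infarct than in remote tissue in all 3 pairs, and the gap is widest in pair C.

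Of the 6670 genes, 433 (6.49%) passed an adjusted p below 0.05 for infarct minus remote tissue, in limma's moderated test with Benjamini-Hochberg adjustment. These were 252 genes higher in infarct tissue (3.78%) and 181 lower (2.71%). Of these, 38 were at least 2-fold higher and 4 at least 2-fold lower. Before adjustment 1570 genes had a p below 0.05. The infarct arrays all lay above the remote arrays for 584 genes (8.76%) and all below for 609 (9.13%), together 17.9%, and among the called genes this held for 160 of 252 higher and 143 of 181 lower ones. The difference had 1 sign in all 3 pairs for 223 of the 252 and 178 of the 181. It was largest in pair C for 170 and 147 of them. The median of the called higher genes was 0.288 log2 units in pair A, 0.747 in pair B and 0.984 in pair C. The signs, the largest pair and the medians come from the same pairs that the calls were made on. Their shares over all genes were not counted, so the counts by sign and by pair lack a background.

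The count depends on single arrays and on a spread estimated over the whole series. Leaving out the infarct array of pair C left 8 calls, and leaving out both arrays of the pair left 3, while without its remote array there were 224. Without the infarct array of pair A there were 1155 calls, and without both its arrays 878. Leaving out the remote array of pair B left 39, its infarct array 308 and both 58. When the 6 arrays were fitted alone, limma called 0 genes, with 880 at an unadjusted p below 0.05 when paired and 679 when not paired. Without the block for the title number 195 genes were called, all among the 433. Only 6 of the 433 genes passed with each of the 6 arrays left out in turn: Sfrp1, Sfrp2, Ccdc80 and Elovl1, which were higher, and Dmpk and Carm1, which were lower. Sfrp1, Sfrp2 and Ccdc80 also passed with each pair left out. Ccdc80, Elovl1 and Carm1 are named because of this result, after their values were seen. All other calls among the 433 are lost when some single array is left out.

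**Figure D2:**
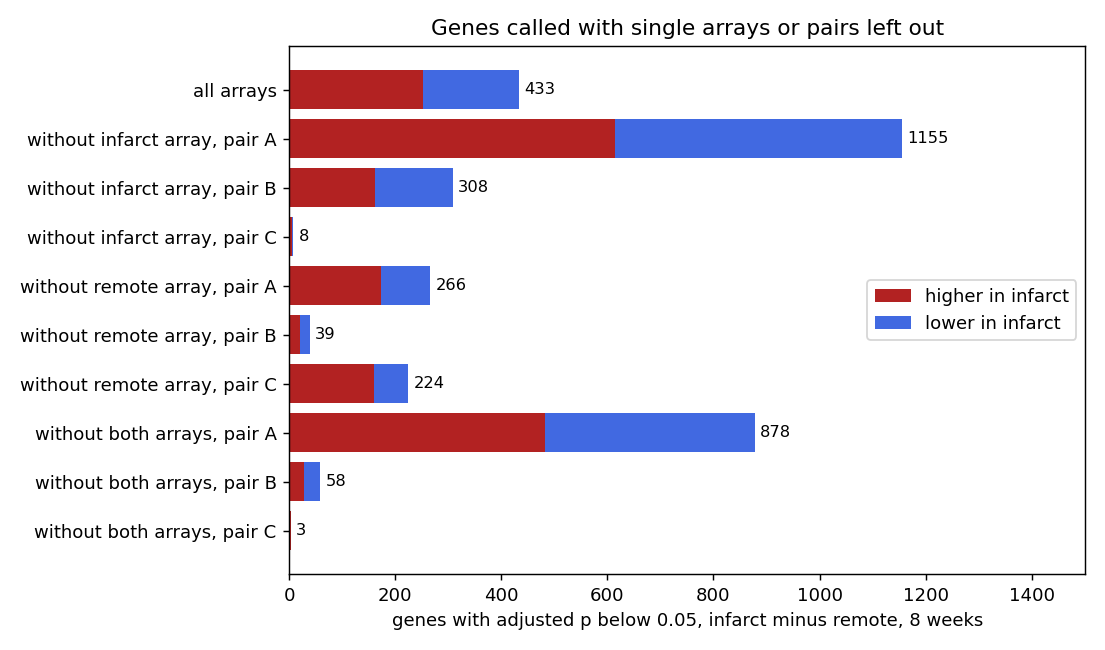
Number of genes with an adjusted p below 0.05 for infarct minus remote tissue at 8 weeks, with all arrays and with single arrays or both arrays of a pair left out. Bars start at 0, with red for genes higher and blue for genes lower in infarct tissue. The count is 433 with all arrays, 1155 without the infarct array of pair A and 8 without that of pair C.

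Secreted Wnt inhibitors were among the genes with the largest rises in the infarct. Sfrp2, a secreted frizzled-related protein that binds Wnt ligands, had intensities of 611, 2785 and 6386 in infarct tissue of pairs A, B and C, against 399, 312 and 652 in remote tissue and 187 to 230 in sham tissue. The infarct was higher in each pair, although the lowest infarct value lay below the highest remote one. The difference was 2.25 ± 0.36 log2 units (SE of the whole-series fit, n = 3 each, adjusted p = 0.000418). Pairs A, B and C differed by 0.56, 2.98 and 3.20, a wider spread than this SE conveys. The fitted difference lay between 1.54 and 3.14 with single arrays or pairs left out. Sfrp1, of the same family, had 411, 774 and 1066 in infarct tissue, against 230, 242 and 288 in remote tissue and 170 to 202 in sham tissue. Its groups did not overlap, and the difference was 1.33 ± 0.20 (SE, n = 3 each, adjusted p = 0.000256). Frzb, a further member of the family and a cartilage gene, had 379, 882 and 2166 in infarct tissue, against 240, 144 and 442 in remote tissue. It was higher in each pair and differed by 1.68 ± 0.39, with groups that overlapped. These were the only 3 of 19 tested Wnt inhibitors and receptors that passed, all higher (15.8%, against 3.78% of all genes). The median was 0.37 over the 19 genes against 0.002 over all genes. Without the infarct array of pair C, Sfrp1 and Sfrp2 still passed and Frzb did not.

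Ccdc80, a secreted matrix-binding protein, had 1036, 1222 and 1434 in infarct tissue, against 632, 518.2 and 719 in remote tissue and 374 to 413 in sham tissue. Its groups did not overlap, and the difference was largest in pair B. The fitted difference of Ccdc80 was 0.93 ± 0.15 (SE, n = 3 each, adjusted p = 0.000543). Elovl1, a fatty acid elongase, had 397, 323 and 313 in infarct tissue, against 186, 187 and 136 in remote tissue. Here the infarct value was highest in pair A, the pair with the least difference in most called genes.

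**Figure D3:**
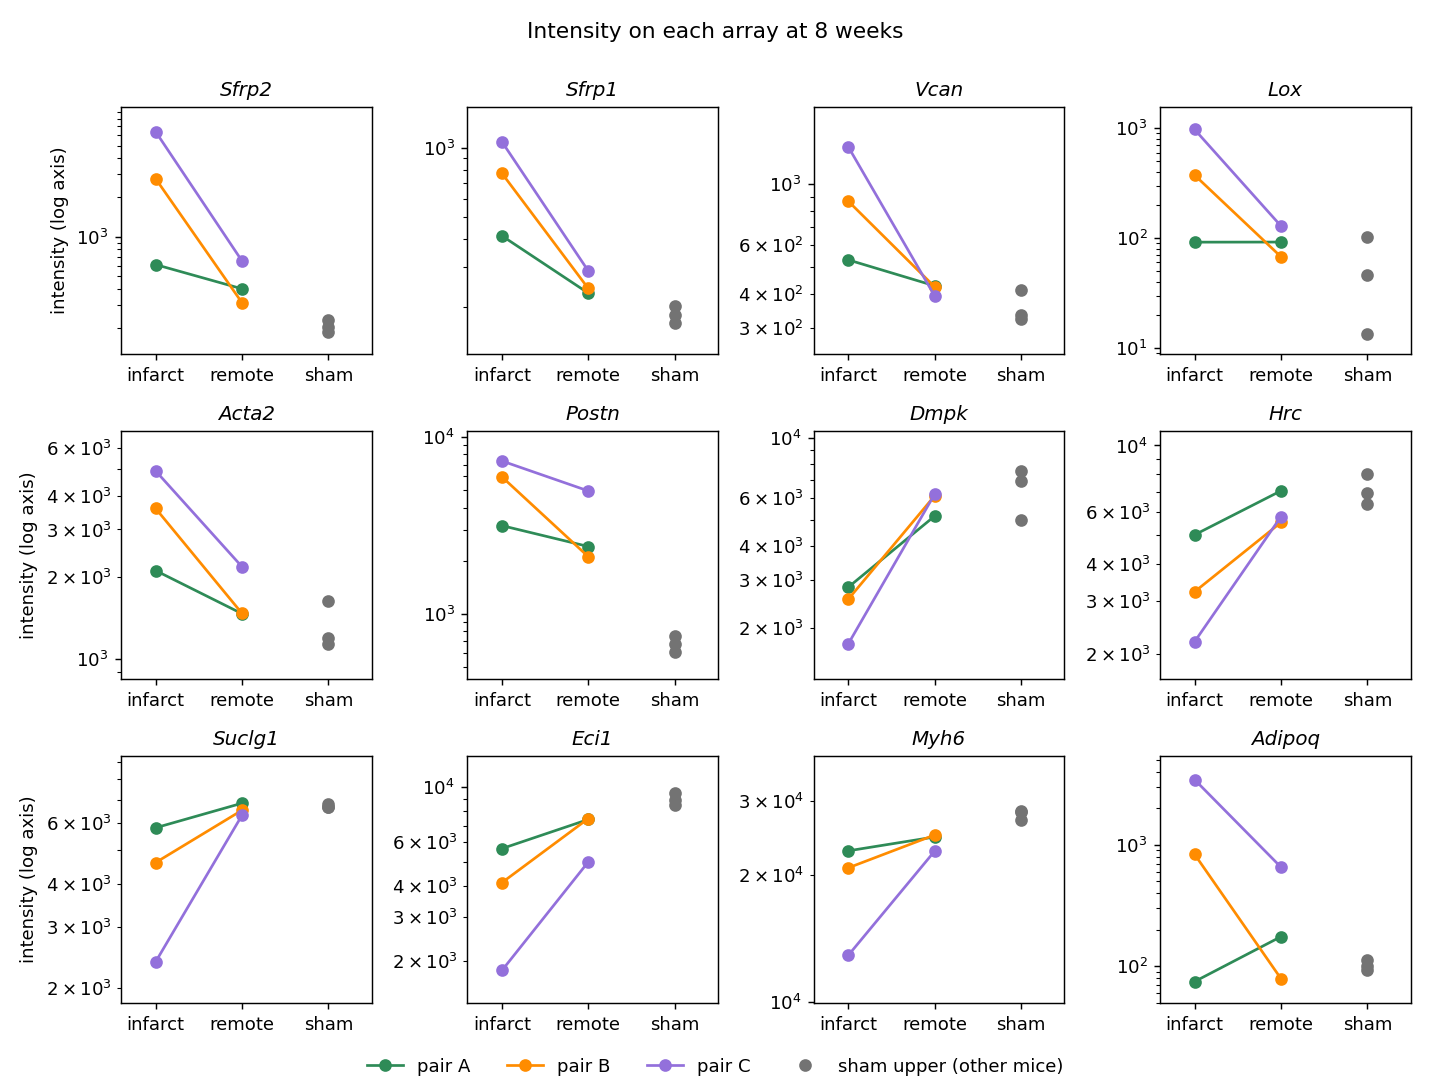
Intensity of 12 genes on each array of 8 weeks, on log axes. Lines join the infarct and remote arrays with 1 title number, and grey points are the 3 sham upper arrays. Sfrp1 infarct values (411 to 1066) all lie above the remote ones (230 to 288), Dmpk infarct values all lie below, and Adipoq is high on 2 infarct arrays and 1 remote array.

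Of 24 genes of proteoglycans and elastic fibres tested, 9 were higher (37.5%, against 3.78% of all genes) and 0 lower, with a median of 0.38 log2 units. Versican (Vcan), a large proteoglycan of provisional matrix, had 531, 867 and 1365 in infarct tissue, against 428, 424 and 393.6 in remote tissue. Its groups did not overlap, and the difference was 0.98 ± 0.20 (adjusted p = 0.00448). Lumican (Lum), a small proteoglycan of collagen fibrils, had 4094, 5645 and 8756 in infarct tissue, against 3256, 2823 and 3975 in remote tissue. Osteoglycin (Ogn), of the same class, had 2226, 2852 and 4399 against 1943, 1651 and 1763. Glypican 3 (Gpc3), a membrane-bound proteoglycan, had 244, 301 and 544 in infarct tissue, against 227, 153 and 198 in remote tissue. In these 3 genes too, every infarct value lay above every remote value, and pair A differed least. The other 5 that passed were Bgn, Fmod, Fbln1, Mfap5 and Ltbp2. Fibromodulin (Fmod), a regulator of collagen fibril assembly that is typical of tendon, had 36.9, 1591 and 4553 in infarct tissue, against 30.6, 34.6 and 627 in remote tissue and 19.6 to 26.7 in sham tissue. It was near the sham level in both pieces of pair A and far above it in the infarct pieces of pairs B and C. Its fitted difference of 2.41 ± 0.62 was the largest of the called genes of this list.

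Of 19 fibrillar collagens and crosslinking enzymes tested, 4 were higher (21.1%, against 3.78% of all genes) and 0 lower, with a median of 0.27. Lysyl oxidase (Lox), which crosslinks collagen, had 91.9, 375 and 976 in infarct tissue, against 92.1, 67.7 and 129 in remote tissue. In pair A the 2 regions had nearly the same Lox value. The difference was 1.48 ± 0.37 (adjusted p = 0.0155), and a second, dimmer probe set of Lox gave 0.21 and did not pass. Col5a2, Col11a1 and Fmod, which is in both lists, were the others. The main scar collagens did not pass. Col1a1 had 2508, 7288 and 11928 in infarct tissue, against 3292, 2552 and 6048 in remote tissue, with a difference of 0.70 ± 0.34 (adjusted p = 0.202). Col1a2 differed by 0.92 ± 0.30 (adjusted p = 0.0513) and Col3a1 by 0.68 ± 0.30 (adjusted p = 0.161). With the number as a fixed block Col1a2 passed (adjusted p = 0.0382). Further probe sets gave 0.48 for Col1a1, 1.15 and 0.72 for Col3a1 and -0.28 for Col1a2, and none of these passed. Both regions of pair C were high in these collagens. In pair A each was lower in infarct than in remote tissue, with Col1a2 at 1777 against 1790 and Col3a1 at 2335 against 2492. The remote arrays of pairs A and C both lay within the infarct range. The 21 tested basement membrane and network collagens gave 1 gene higher and 1 lower, Col8a1 and the laminin Lama5, with a median of 0.08. Each is 4.76% of the list, against 3.78% higher and 2.71% lower of all genes. Lama5 fell by 0.46 on its main probe set, and a second, dimmer one gave 0.22 and did not pass.

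Matricellular genes gave 5 higher (29.4%, against 3.78% of all genes) and 0 lower of 17, with a median of 0.41. Thrombospondin 2 (Thbs2), which limits vessel growth, had 390, 715 and 1249 in infarct tissue, against 387, 296 and 176 in remote tissue. Its difference of 1.24 ± 0.31 came from pairs B and C, since the pair A values were nearly equal. Periostin (Postn), made by activated fibroblasts, had 3162, 5962 and 7333 in infarct tissue, against 2409, 2110 and 4967 in remote tissue and 608 to 754 in sham tissue. Both regions lay far above sham tissue, and the difference between them was 0.81 ± 0.26 (adjusted p = 0.0476). Postn also differed by position in sham hearts. Thbs3, Ccn5 and Fgl2 were the other 3. Matrix proteases and inhibitors gave 5 higher of 23 (21.7%), with a median of 0.24: Mmp3, Mmp12, Timp2, Serpinf1 and Reck. The macrophage elastase Mmp12 had 851, 1820 and 1356 in infarct tissue, against 2152, 72.6 and 67.2 in remote tissue, so pair A ran against the other 2. Cartilage and tendon matrix gave 3 higher of 17 (17.6%), namely Chad, Col14a1 and Frzb. Without the infarct array of pair C, none of the genes of the proteoglycan, collagen, matricellular, protease and basement membrane lists passed.

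Further secreted or surface proteins were among the 12 largest rises with groups that did not overlap. Cpxm1, a secreted carboxypeptidase-like protein, had 65.3, 195 and 341 in infarct tissue, against 61.5, 9.4 and 63.2 in remote tissue. Its difference was 1.34 ± 0.30, and the lowest infarct value lay just above the highest remote one. Smoc1, a calcium-binding matrix protein, differed by 1.29 ± 0.37, Cd302, a C-type lectin, by 1.14 ± 0.21, and Emb, an adhesion molecule, by 1.09 ± 0.31. Bdkrb1, the bradykinin receptor induced by injury, had 272, 276 and 330 in infarct tissue, against 106, 105 and 128 in remote tissue. Its log2 difference was 1.07, 1.09 and 1.11 in the 3 pairs, without the grading seen in most called genes. In sham tissue Bdkrb1 had 123, 194 and 289, so the remote values were near or below the lowest sham value. Id2, an inhibitor of basic helix-loop-helix factors, had 1013, 1502 and 2648 in infarct tissue, against 835, 476 and 852 in remote tissue. The imprinted zinc finger gene Peg3 differed by 1.07 ± 0.23, and the other rises of the 12 were H2-DMb2, Abi1 and Eef2k, at 1.25, 1.22 and 1.02. H2-DMb2 had 150, 207 and 335 in infarct tissue, against 43.5, 42.1 and 131 in remote tissue and 58 to 243 in sham tissue. Its infarct minus sham difference of 0.55 did not pass (adjusted p = 0.372), and its call against remote tissue held in 4 of 20 alternative settings. Abi1 remote values were 19.4 to 40.2, below the 45.6 added before the log was taken, which shrinks its change. Second probe sets of Emb and Peg3 gave -0.05 and 0.65, and another of Peg3 gave 0.21. None of these passed.

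Smooth muscle and myofibroblast genes gave 5 higher (29.4%, against 3.78% of all genes) and 0 lower of 17, with a median of 0.34. Smooth muscle actin (Acta2), the marker of myofibroblasts, had 2119, 3586 and 4927 in infarct tissue, against 1471, 1475 and 2189 in remote tissue and 1138 to 1644 in sham tissue. It was higher in each pair, and the lowest infarct value lay within the remote range. The difference was 0.97 ± 0.24 (adjusted p = 0.0155). Tagln, an actin-binding protein, had 571, 1010 and 2449 in infarct tissue, against 513.6, 505 and 929 in remote tissue, a difference of 0.81 ± 0.24 (adjusted p = 0.0371). Myosin light chain kinase (Mylk) had 1461, 1846 and 2331 in infarct tissue, against a narrow 1326 to 1350 in remote tissue. Its groups did not overlap, and the difference was 0.45 ± 0.13. Myh11 and Tpm1 were the other 2, and Actn1, of the cytoskeleton, also passed at 1.10 ± 0.22. Without the infarct array of pair C none of these passed. Fibroblast markers gave 5 higher (20.8%) and 0 lower of 24, with a median of 0.34: Lum, S100a4, Fbln1, Mfap5 and Postn. The median of this list was -0.09 in pair A, 0.47 in pair B and 0.69 in pair C. The fibroblast marker sums of infarct tissue rose over the pairs in the same order, but they share genes such as Lum with this list, on the same arrays.

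Few immune genes and no fat cell genes were called. Of 26 macrophage and monocyte markers only Mrc1, the mannose receptor, passed (3.85%, against 3.78% of all genes higher). All 26 had a fitted difference above 0 and the median was 0.48. That median was -0.15 in pair A, 0.82 in pair B and 0.75 in pair C. Galectin 3 (Lgals3), of activated macrophages, had 133, 747 and 625 in infarct tissue, against 497, 35.3 and 113 in remote tissue. Pair A was lower in the infarct and the other pairs were higher (1.26 ± 0.45, adjusted p = 0.0787). Complement gave 3 higher of 15 (20%), with a median of 0.38: C1ra, Serping1 and Cd55. C1ra had 677, 996 and 1708 in infarct tissue, against 588, 540 and 636 in remote tissue, and a second probe set gave 0.36 and did not pass. None of 17 adipocyte markers passed, 9 had a difference above 0 and 8 below, and the median was 0.02. Adiponectin (Adipoq) had 74.9, 836 and 3442 in infarct tissue, against 176, 79.2 and 656 in remote tissue and 93.9 to 114 in sham tissue. Car3, another fat cell gene, had 31.6, 865 and 2904 in infarct tissue, against 176, 13.9 and 617 in remote tissue. Adipoq and Car3 were highest on the infarct arrays of pairs B and C and the remote array of pair C, while the leptin gene Lep had 583, 563 and 1080 in infarct tissue, against 416, 798 and 463 in remote tissue. The summed fat cell markers, 4 genes, came to 703, 2409 and 7722 in infarct tissue, against 831, 904 and 1786 in remote tissue. Endothelial markers gave 0 called of 24, with a median of -0.02.

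**Figure D4:**
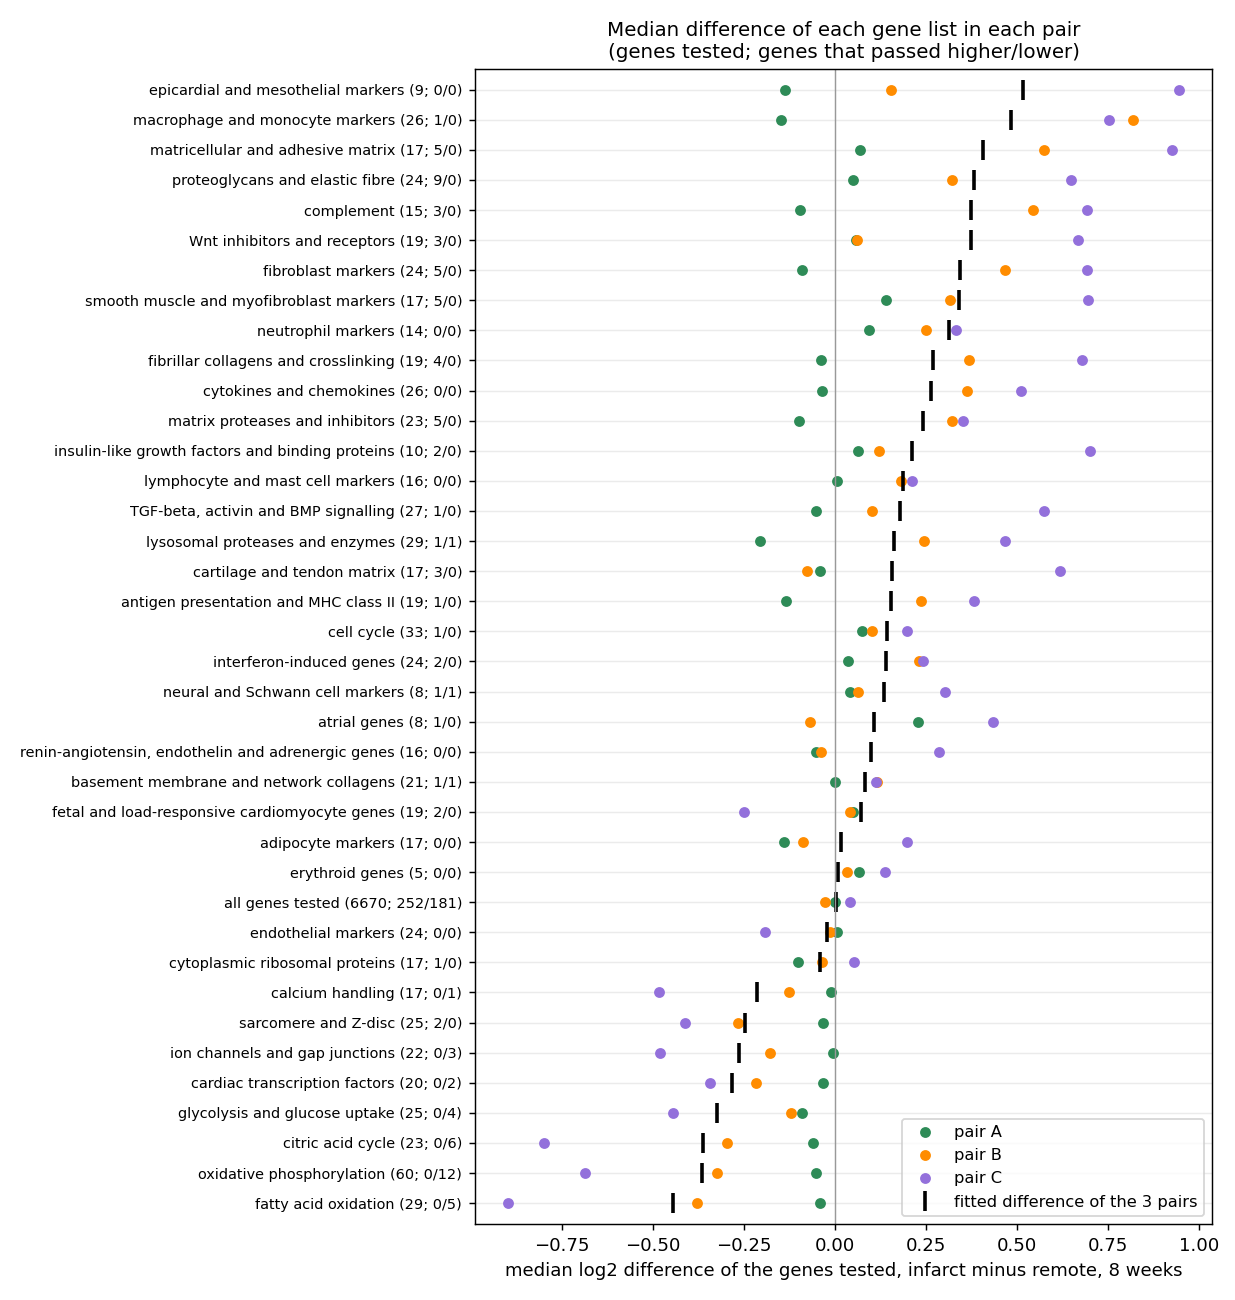
Median log2 difference, infarct minus remote at 8 weeks, of the tested genes of each of 37 lists and of all genes tested. Coloured points are single pairs and black bars the fitted difference of the 3 pairs. In the name of each list stand the number of genes tested and the numbers called higher and lower. Fatty acid oxidation runs from -0.04 in pair A to -0.38 in pair B and -0.90 in pair C.

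The largest fall was in Dmpk, the kinase affected in myotonic dystrophy, which is abundant in heart and skeletal muscle. It had 2832, 2559 and 1755 in infarct tissue, against 5163, 6126 and 6212 in remote tissue and 5001 to 7555 in sham tissue. Its groups were far apart in each pair, also in pair A. The difference was -1.30 ± 0.20 (SE, n = 3 each, adjusted p = 0.000389), it kept passing with each single array left out, and without both arrays of pair C its adjusted p was 0.086. Carm1, an arginine methyltransferase, had 555, 631 and 647 in infarct tissue, against 1015, 1026 and 1066 in remote tissue. Its difference of -0.72 ± 0.13 was smaller, and the pairs differed by -0.82, -0.66 and -0.68, without the grading of Dmpk at -0.86, -1.24 and -1.80. Hif3a, of the hypoxia-inducible factor family, had 148, 64.3 and 51.1 in infarct tissue, against 196, 279 and 224 in remote tissue. Fbp2, the muscle form of fructose bisphosphatase, had 226, 147 and 56.3 in infarct tissue, against 394.3, 289 and 263 in remote tissue. The phosphatase Ptp4a3 had 2399, 1811 and 1309 in infarct tissue, against 3811, 3722 and 3522 in remote tissue. These 3 fell by 1.12, 1.03 and 1.03 on the log2 scale with no overlap of the groups. Hrc, which binds calcium in the sarcoplasmic reticulum, had 5013, 3227 and 2194 in infarct tissue, against 7043, 5515 and 5767 in remote tissue. The other falls among the 12 largest were Ascl2, Slc25a11, Artn, Pygm, Kmt5a, Kcnk3 and Apc2, from -0.80 to -0.96. A second probe set of Apc2 gave 0.09. Of these genes, Dmpk and Carm1 still passed without the infarct array of pair C.

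Genes of mitochondrial energy production were lower in the infarct, and in these lists no gene was called higher. Of all genes tested 2.71% were called lower. Of 29 genes of fatty acid oxidation 5 were lower (17.2%), with a median of -0.45. Of 23 genes of the citric acid cycle 6 were lower (26.1%), with a median of -0.36. Of 60 genes of oxidative phosphorylation 12 were lower (20%), with a median of -0.36. The difference was below 0 for 27 of 29, 21 of 23 and 58 of 60 of these genes, against 3316 of all 6670. Suclg1, a subunit of succinyl-CoA ligase, had 5804, 4607 and 2385 in infarct tissue, against 6830, 6518 and 6302 in remote tissue and 6675 to 6788 in sham tissue. Remote and sham values were close to each other, and the infarct values lay below both, lowest in pair C. The difference was -0.70 ± 0.16 (adjusted p = 0.0112). Eci1, an isomerase of fatty acid oxidation, had 5669, 4138 and 1837 in infarct tissue, against 7421, 7483 and 5014 in remote tissue. Mlycd, which degrades the malonyl-CoA that blocks fatty acid uptake into mitochondria, fell by 0.59 on the log2 scale with no overlap. Ndufb8, a subunit of complex I, had 10449, 8253 and 5078 in infarct tissue, against 11249, 12241 and 11157 in remote tissue. Slc25a4, the ADP/ATP carrier, had 17734, 14814 and 11829 in infarct tissue, against 19481, 18280 and 18997 in remote tissue. In each of these genes the difference was smallest in pair A. Acadm, which starts the oxidation of medium-chain fatty acids, had 13084, 9338 and 4784 in infarct tissue, against 11403, 12153 and 9822 in remote tissue. It was higher in the infarct of pair A and did not pass (-0.40 ± 0.19, adjusted p = 0.191). Without the infarct array of pair C none of the 23 called mitochondrial genes passed. Cardiomyocyte marker sums fell over the infarct pieces in the same order of pairs.

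Esrra, a nuclear receptor that acts on genes of oxidative metabolism through the element AAGGTCA, had 1478, 1292 and 901 in infarct tissue, against 1933, 1724 and 1506 in remote tissue. It was lower in each pair, with no overlap (-0.50 ± 0.13, adjusted p = 0.0161), and a second probe set gave -0.25 and did not pass. The element AAGGTCA was searched on both strands of promoter windows from RefSeq (build GRCm38.p6), 250 bases before to 50 after each gene start. It was found for 3 of the 21 called mitochondrial genes that matched the table, against 231 of 5347 tested genes (4.32%) and 1550 of 32851 windows in all (4.72%). The CArG box, an element of smooth muscle genes, was found in 0 of the 3 matched genes among the 5 called smooth muscle genes, and in 1.63% of all windows. These matches are letters in a window and not binding sites. The windows of Atp5e, a subunit of ATP synthase, and Sdhd, a subunit of succinate dehydrogenase, are given to show where the element lay, in capitals on the opposite strand, both just after the gene start.
Atp5e, chr2:174464052-174464351, minus strand: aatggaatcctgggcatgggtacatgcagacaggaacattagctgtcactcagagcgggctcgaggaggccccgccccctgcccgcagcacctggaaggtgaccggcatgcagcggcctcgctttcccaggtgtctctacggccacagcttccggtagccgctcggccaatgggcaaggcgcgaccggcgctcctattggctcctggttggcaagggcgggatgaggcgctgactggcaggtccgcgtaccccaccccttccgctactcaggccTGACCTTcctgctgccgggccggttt
Sdhd, chr9:50603800-50604099, minus strand: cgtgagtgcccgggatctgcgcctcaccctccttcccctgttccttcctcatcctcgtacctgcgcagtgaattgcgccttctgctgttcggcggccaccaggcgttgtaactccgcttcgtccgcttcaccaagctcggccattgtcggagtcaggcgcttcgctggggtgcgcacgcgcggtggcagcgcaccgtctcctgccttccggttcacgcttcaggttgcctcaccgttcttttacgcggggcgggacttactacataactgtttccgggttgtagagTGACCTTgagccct
The third gene with the element was Ogdh, at 1 of its several start sites. Sdhd had 9583, 8716 and 5326 in infarct tissue, against 11031, 10478 and 9378 in remote tissue, and Atp5e had 6316, 5380 and 2654 against 8623, 6335 and 5848.

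Genes of glucose use fell in part. Of 25 genes of glycolysis and glucose uptake 4 were lower (16%, against 2.71% of all genes) and 0 higher, with a median of -0.32. Glycogen phosphorylase (Pygm) had 6718, 6047 and 3093 in infarct tissue, against 9012, 8775 and 8871 in remote tissue. Glycogen synthase (Gys1), the glucose transporter Slc2a4 and pyruvate kinase (Pkm) fell by 0.62, 0.76 and 0.36 on the log2 scale. Second probe sets of Slc2a4 and Pkm gave 0.04 and -0.02. In all 4 genes the groups did not overlap, and none passed without the infarct array of pair C. With the number as a fixed block Gys1 kept its call, and Pygm (adjusted p = 0.0612), Slc2a4 (0.0713) and Pkm (0.0812) did not.

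Contractile genes showed no called fall at 8 weeks. Of 25 sarcomere and Z-disc genes 0 were called lower (against 2.71% of all genes) and 2 higher (8%, against 3.78%), Tpm1 and Pdlim3. The fitted difference was nonetheless below 0 for 20 of the 25, against 3316 of all 6670 genes, with a median of -0.25. Myh6, the adult heart myosin, had 22832, 20807 and 12908 in infarct tissue, against 24625, 24897 and 22797 in remote tissue. The value was lower in the infarct in each pair (-0.40 ± 0.38, adjusted p = 0.554). Myh7, the fetal form, had 18385, 17671 and 19285 in infarct tissue, against 16491, 14165 and 20282 in remote tissue (0.13 ± 0.47, adjusted p = 0.894). A second, far dimmer probe set of Myh7 had means of 316 and 324, gave -0.03 and did not pass. Myl2, Atp2a2, Ryr2 and Actc1 did not pass either, at -0.25, -0.36, -0.26 and -0.18. For Myl2, Atp2a2 and Actc1, but not Ryr2, all 3 infarct values lay below all 3 remote values, an order found for 9.13% of all genes. Among 17 calcium handling genes Hrc was the only one called (5.88% lower, against 2.71% of all genes). Of 22 ion channel and gap junction genes 3 were lower (13.6%): the potassium channel Kcnk3, the pacemaker channel Hcn2 and Fxyd1, a regulator of the sodium pump. The transcription factors Hand2 and Esrra were lower among 20 cardiac factors (10%). Hand2 had 342, 214 and 158 in infarct tissue, against 392.3, 431.6 and 390.6 in remote tissue. The natriuretic peptide gene Nppa had 3065, 7664 and 10555 in infarct tissue, against 2076, 3169 and 6652 in remote tissue and 1135 to 1440 in sham tissue. It was higher in the infarct in each pair and did not pass (0.83 ± 0.29, adjusted p = 0.0697). Nppb gave -0.09 ± 0.26 (adjusted p = 0.875). Of 19 fetal and load-responsive genes, which include both peptides, Acta2 and Actn1 passed, both higher (10.5%).

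Among the remaining lists, few genes passed. Over all genes, 3.78% were called higher and 2.71% lower. Tgif1 passed of 27 genes of TGF-beta, activin and BMP signalling (3.7%), and Kif11 of 33 cell cycle genes (3.03%). Kif11 was dim, with 35, 57.9 and 53.6 in infarct tissue, against 9.1, 9.5 and 22.9 in remote tissue. These values are near or below the added 45.6 and all below the filter of 108.2, which other arrays reached. It was called in 2 of 20 alternative settings. Igfbp3 and Igfbp4 passed of 10 genes of the insulin-like growth factor system (20%). To these came Irf8 and Ifi202b of 24 interferon-induced genes (8.33%), H2-DMb2 of 19 antigen presentation genes (5.26%) and Nr2f2 of 8 atrial genes (12.5%), all higher. Lysosomal enzymes gave Atp6ap1 higher and Gaa lower of 29 (3.45% each), and neural genes gave Pmp22 higher and Stmn2 lower of 8 (12.5% each). Further probe sets gave 0.57 for Igfbp3, -0.17 for Nr2f2, 0.25 for Atp6ap1, -0.03 for Gaa, and 0.06 and -0.21 for Stmn2. None of these passed. Of 17 cytoplasmic ribosomal proteins only Rps19 passed (5.88%), and the median of that list was -0.04. Rps19 had 4497, 4484 and 5686 in infarct tissue, against 2853, 2844 and 2525 in remote tissue. The pairs differed in Rps19 by 0.65, 0.65 and 1.16 log2 units. Cytokines and chemokines gave 0 called of 26, neutrophil markers 0 of 14, lymphocyte and mast cell markers 0 of 16, erythroid genes 0 of 5, mesothelial markers 0 of 9, and genes of the renin-angiotensin, endothelin and adrenergic systems 0 of 16.

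Set against sham tissue, which lies at the position of the remote piece, the infarct values stood further off than the remote values. Infarct tissue differed from sham tissue of 8 weeks in 1409 genes (21.1%; 11.5% higher and 9.66% lower), and remote tissue in 8 (0.12%), all higher, with 545 at an unadjusted p below 0.05. Both comparisons share the sham arrays. The 8 genes were Postn, Mfap5, Nppa, Igfbp6, Fzd2, Emp1, Fbln2 and Faap20. Postn was higher than in sham tissue by 2.85 log2 units in infarct tissue and by 2.05 in remote tissue. For Nppa these differences were 2.22 and 1.40. Of the 252 genes called higher in infarct than in remote tissue, 199 had a remote mean between the sham and the infarct mean, and of the 181 called lower, 138 did. The call itself already places the infarct mean beyond the remote mean in these genes. The share over all genes tested was not counted, so these counts have no background to be read against.

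Infarct and remote pieces also differ in position along the ventricle, and sham hearts show what position gives without an infarct. Sham lower tissue differed from sham upper tissue in 5.92% of the genes tested, 212 higher (3.18%) and 183 lower (2.74%), over the 5 times with a sham lower array. Of the 252 genes called higher in the infarct at 8 weeks, 201 had a position difference of the same sign and 34 passed in that direction. Of the 181 called lower, 166 had the same sign and 39 passed. Over all genes tested, 3618 had a position difference above 0 and 3052 below. Dmpk had 3502 ± 444 in sham lower tissue, against 5909 ± 1341 in sham upper tissue (SD, n = 5 each), and was lower in 5 of 5 pairs, by -0.68 ± 0.13 log2 units in the fit (adjusted p = 0.00176). The infarct minus remote difference of Dmpk at 8 weeks exceeded the position difference by -0.62 ± 0.24, which did not pass (adjusted p = 0.283). Carm1 differed by position by -0.63 ± 0.09, nearly as much as between infarct and remote tissue. Elovl1 was higher in sham lower tissue by 0.61 ± 0.11, Ptp4a3 lower by -0.63 ± 0.14, Hand2 by -0.48 ± 0.11 and Kcnk3 by -0.53 ± 0.16, all passing. Genes given above that also passed by position, in the same direction, were Postn at 0.53 ± 0.17, Mfap5 at 0.48 ± 0.12, Fgl2 at 0.55 ± 0.15, Esrra at -0.29 ± 0.08, Gys1 at -0.34 ± 0.10, Kmt5a at -0.46 ± 0.14 and Lama5 at -0.24 ± 0.08. The excess of Postn over its position difference was 0.28 ± 0.31, which did not pass (adjusted p = 0.736). Igfbp4 passed by position in the opposite direction, at -0.40 ± 0.12. Of the 6 genes that passed with every single array left out, Dmpk, Carm1 and Elovl1 thus also differed by position in sham hearts.

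Only 2 genes (0.03%) passed a test of the 8-week difference beyond the position difference, Sfrp1 and Sfrp2, with 865 genes at an unadjusted p below 0.05. Sfrp1 had 204 ± 40.1 in sham lower and 218 ± 22.0 in sham upper tissue (SD, n = 5 each), and its infarct minus remote difference exceeded the position difference by 1.31 ± 0.23 (adjusted p = 0.0112). Sfrp2 had 170 ± 41.5 in sham lower and 193 ± 45.1 in sham upper tissue, and the excess was 2.20 ± 0.43 (adjusted p = 0.026). With the number as a fixed block Sfrp1 kept its call (1.41, adjusted p = 0.0289) and Sfrp2 lost it (2.40, adjusted p = 0.203), and Pck1 and Ext1, named after their values were seen, passed at 2.16 and 0.83. No sham lower array was from 8 weeks, so the position difference is that of earlier times. The count was 0 without the infarct array of pair B or C, without the remote array of pair B, without either of these pairs or without the block. Without the infarct array of pair A, 7.78% of the genes passed.

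At 1 week the regional difference was far broader. Infarct and remote tissue differed in 2750 genes (41.2%; 22.8% higher and 18.4% lower), and 738 genes (11.1%) had a difference at 8 weeks that differed from that at 1 week, 407 above it (6.1%) and 331 below (4.96%). These 738 include genes without a called difference at 8 weeks. For contractile and mitochondrial genes the difference at 8 weeks was nearer to 0. The median of the sarcomere list was -0.25 at 8 weeks, against -1.40 at 1 week, and that of oxidative phosphorylation -0.36, against -1.20. In 17 of 25 sarcomere genes and 44 of 60 oxidative phosphorylation genes the test of the change passed, all above the 1-week value. Myl3, a light chain of ventricular myosin, had 18002 ± 4352 in infarct and 23911 ± 1607 in remote tissue at 8 weeks, against 4522 ± 3651 and 19729 ± 3634 at 1 week (SD, n = 3 each). The change in its difference was 2.51 ± 0.59 (adjusted p = 0.00424). Hrc had 3478 ± 1426 in infarct and 6109 ± 819 in remote tissue at 8 weeks, against 440 ± 197 and 2929 ± 842 at 1 week. It remained lower in the infarct at both times.

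Among the 5 largest changes in the other direction were genes of white blood cells. Over all genes tested, 331 of 6670 (4.96%) had a difference lower at 8 weeks than at 1 week, with a test that passed. This held for 4 of 26 macrophage and monocyte markers, 3 of 15 complement genes and 1 of 26 cytokines and chemokines. Lists of other kinds gave 6 of 23 matrix proteases and inhibitors, 4 of 29 lysosomal genes and 4 of 33 cell cycle genes. It held for 0 of 24 interferon-induced genes and 1 of 14 neutrophil markers. Another neutrophil marker changed the other way. Mmp9, a gelatinase of neutrophils and macrophages, had 118 ± 87.2 in infarct and 72.8 ± 78.1 in remote tissue at 8 weeks, against 1132 ± 230 and 233 ± 311.1 at 1 week. Adam8, a metalloprotease of white blood cells, had 62.4 ± 51.6 and 48.0 ± 28.6 at 8 weeks, against 2690 ± 106 and 659 ± 192 at 1 week. Chil3, of alternatively activated macrophages, had 54.6 ± 15.2 in infarct and 112 ± 21.7 in remote tissue at 8 weeks, against 631 ± 268 and 210 ± 32.7 at 1 week. The lowered values in both regions at 8 weeks bring these genes near the added 45.6, which shrinks their differences. Sfrp2 ran the other way. It had 3261 ± 2917 in infarct and 454 ± 177 in remote tissue at 8 weeks, against 3367 ± 873 and 2147 ± 1050 at 1 week, so that its infarct mean was like that of 1 week while its remote mean was lower. The change was 1.53 ± 0.51 (adjusted p = 0.0419). Sema3b, a semaphorin, was higher in the infarct at 8 weeks, with 214 ± 106 against 82.2 ± 67.4 in remote tissue, and lower at 1 week, with 46.6 ± 25.9 against 191 ± 46.9. A second, dimmer probe set of Sema3b gave -0.06 at 8 weeks and did not pass. Sfrp1 differed alike at both times, by 1.33 at 8 weeks and 1.26 at 1 week, and the change of 0.06 ± 0.28 did not pass.

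**Figure D5:**
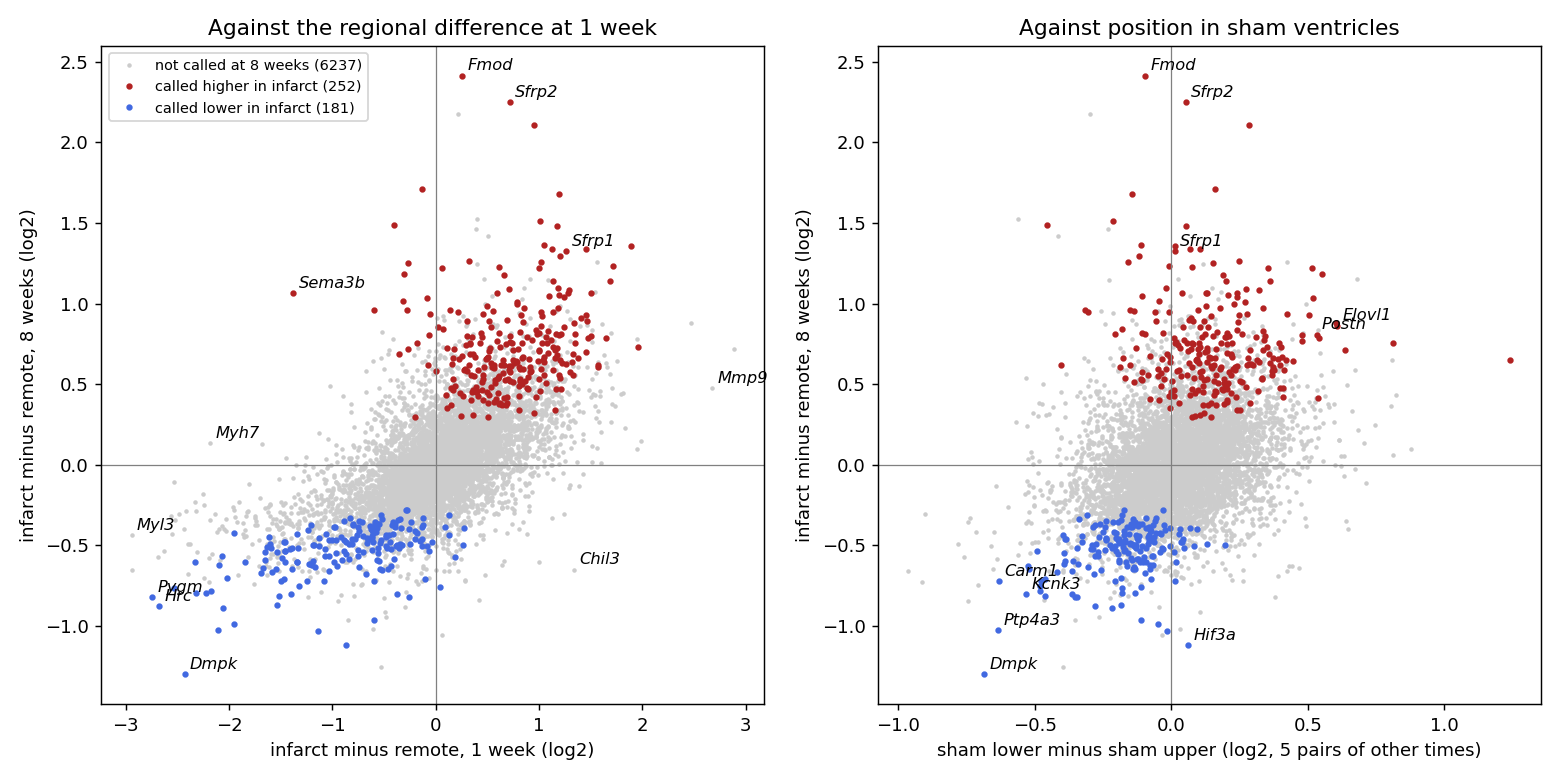
Infarct minus remote difference at 8 weeks (vertical, log2) of each gene against the infarct minus remote difference at 1 week (left) and against the sham lower minus sham upper difference (right). Red and blue points are the 252 and 181 genes called higher and lower at 8 weeks, and grey points the rest of the genes tested. Dmpk lies low on all 3 axes, while Sfrp1 and Sfrp2 lie high at 8 weeks and near 0 for position.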

How the data were processed

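Total RNA of 59 mouse left ventricle pieces was measured, 1 piece per array. The deposited values are intensities on a linear scale, already scaled by the authors: in the deposited table the trimmed mean of an array, with 2% cut at each end, was 499.2 to 499.9. No tool or build was given in the sources used. Of 12488 probe sets, 10833 with 1 gene were used, covering 8251 genes, each by its probe set of highest mean. Genes that reached 108.2 (the 40th percentile) on at least 3 arrays were kept, 6670 in all. The values became log2(intensity + 45.6), so a fold change is on that scale and understates the change of dim genes. Differences were fitted in limma 3.58.1 (R 4.3.3), in 1 model of 23 groups over 59 arrays, with the title number as a random block (consensus correlation 0.148, 36 residual and 4.43 prior degrees of freedom), since 3 pairs alone leave few degrees of freedom. P values were adjusted by Benjamini-Hochberg over all genes tested.

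The comparison, the 37 gene lists and the panel of genes were chosen with earlier results of these data known. Named genes are the 12 largest rises and falls among called genes whose groups do not overlap, up to 4 such members per list, the panel, and 5 rises and falls per difference of differences. Further called list members are named to complete a count. Same-numbered 8-week arrays deviated from their group means with correlations of 0.187, -0.098 and 0.341, so the data do not show the pairing in every pair. Alternatives were other offsets, quantile normalization, other filters, every probe set, other blocks, fewer arrays and arrays left out. Data were also simulated with this design, with the same spread of a gene in every group and the same change on all 3 infarct arrays. There, 44% of changes of 0.5, 86% of 1 and 100% of 2 log2 units were recovered, with 8 of 6470 unchanged genes called. The measured differences were graded over the pairs and the infarct arrays varied more, so these rates do not describe the calls made here. No 2 arrays were identical. Intensities carry no read depth. Figures were drawn with matplotlib 3.10.9.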

Additional observations from a re-analysis of the deposited data

Results flagged for a closer look

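The regional difference at 8 weeks differed from that at 1 week, by a test of the change itself, in 738 genes. Among the genes named here the change was positive for Myl3 (2.51), Sema3b (2.44), Mapt (2.42), Myh7 (2.31), Sgca (2.29), Pygm (1.92), Hrc (1.80), Sfrp2 (1.53), Eef2k (1.34), Dmpk (1.13) and Ptp4a3 (1.08), in log2 units. For Myl3, Mapt, Sgca, Pygm, Hrc, Dmpk and Ptp4a3 a positive change stands for an infarct value that was less far below the remote value at 8 weeks than at 1 week. Myh7, on its main probe set, was lower in the infarct at 1 week only. Sfrp2 was further above the remote value at 8 weeks than at 1 week. Sema3b (main probe set) and Eef2k had a fitted difference below 0 at 1 week and above 0 at 8 weeks. The change was negative for Mmp9 (-2.20), Chil3 (-1.99), Napsa (-1.85), Adam8 (-1.84) and Kdelr2 (-1.60), which were higher in the infarct at 1 week.

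The infarct minus remote difference at 8 weeks exceeded the lower minus upper difference of sham hearts for Sfrp2, by 2.20 log2 units, and for Sfrp1, by 1.31. Both tests lost their call when the infarct array of pair B or C was left out. With the number as a fixed block Sfrp2 also lost its call, at an adjusted p of 0.203.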

How the results depend on the processing

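The 433 calls between infarct and remote tissue became 396 and 540 with a smaller and a larger offset, 493 with quantile normalization, 338 without a filter, 579 with a stricter filter, 457 over every probe set, 301 with the number fitted as a fixed block and 195 with no replicate block. Because same-numbered arrays did not deviate together in every pair, the pairing rests on the numbers alone. The 6 arrays fitted alone gave 0 calls with the replicate block and 0 without it, and the 9 arrays of 8 weeks gave 0 in limma, where 1186 genes had an unadjusted p below 0.05. These fits have fewer residual degrees of freedom. With single arrays or pairs left out the count ran from 3, without pair C, to 1155, without the infarct array of pair A. The count for the change against 1 week, 738, was 505 with no replicate block and ran from 442, without pair B, to 962, without the infarct array of pair C. The share of genes that passed beyond position in sham hearts, 0.03% (2 genes), was 0% with no replicate block, 0.015% and 0.135% with the smaller and larger offset, 0.0491% over every probe set, and 0% to 7.78% with arrays left out. With the fixed block, 254 of the 301 calls were among the 433, and of 62 called genes named by the rule 39 kept their call and 23 did not, with adjusted p from 0.0509 to 0.105, among them Thbs2, Bdkrb1, Rps19, Hif3a, Ndufb8 and Slc25a4. Single named genes kept their side of the threshold in 1272 alternative values, lost it in 615 and gained it in 41, and none of those with a call changed sign. The log2 change of dim genes is shrunk by the added offset.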
